A study of Mus musculus with 32 samples.

Results

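The genes of cholesterol synthesis and of its control were followed in laser-captured spinal cord cells of mice with mutant SOD1 or mutant tau. The set holds 29 genes, chosen by name: 8 of the mevalonate pathway, 11 that turn squalene into sterols, 5 that control SREBP (the sterol response factors) and 5 that move, store or remove cholesterol. They have 59 of the 41174 probes on the array and are 29 of 27842 genes or single probes. Each gene was read from its brightest probe; Msmo1 stands in the files under its older symbol Sc4mol.

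The array study compared transgenic mice with nontransgenic littermates in captured motor neurons of the lumbar anterior horn and in surrounding glia. The SOD1-G93A groups were B6SJL-Tg(SOD1-G93A)1Gur females of 8 weeks, set against B6SJL littermates of the same age. The TAU-P301L groups were B6D2F1-Tg(TAU-P301L) females of 16 weeks, set against B6D2F1 littermates of the same age, so model, age and background strain differ together. Each of the 4 comparisons had 4 littermate pairs, with a dye swap for every pair (2 arrays each, 32 in all). About 500 cells per mouse were picked by morphology on 12 µm sections stained with cresyl violet. The promoter that drives either transgene is not given in the sources used here. Whether a motor neuron extract and a glia extract with the same number came from 1 mouse is not stated either.

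Cholesterol does not cross from blood into the nervous system in useful amounts, so neurons and glia depend on sterols made locally, and myelin holds most of the store. Synthesis runs from acetyl units through mevalonate and farnesyl units to squalene, which is closed into lanosterol and trimmed to cholesterol. When sterols are scarce, the carrier Scap takes SREBP precursors out of the endoplasmic reticulum and the released factors switch on nearly every enzyme of the route, while Insig proteins hold Scap back when sterols are plentiful. Neurons dispose of surplus cholesterol chiefly through the 24-hydroxylase Cyp46a1.

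SREBP2 acts together with the factor NF-Y, and their binding letters were looked for in RefSeq promoter windows (build GRCm38.p6, 250 bases before to 50 after a start), on both strands. Of the 29 members 24 had a window in the table, 32 windows in all. Fdps, Fdft1, Sqle, Stard4 and Npc1 were not matched. The NF-Y box CCAAT stood in a window of 22 of the 24 members, and in 41.1% of the 27025 genes of the table. The sterol regulatory element TCACNCCAC was found in 1 member, Hmgcs1, and in 1.44% of genes. The looser form TCACNCNA, which covers the first 8 letters of the longer one, was found in 5 members and in 12.5% of genes. A match is a description of letters, not of binding, and no factor was measured on these promoters. The 250 bases before the start are printed for the synthesis genes that the comparisons of transgenic with control mice below turn on, for Hmgcs1 with its sterol element, and for Cyp46a1, 5′ to 3′ on the gene's strand. Capitals mark every match to the 3 motifs; CCAAT on the opposite strand reads ATTGG.
Hmgcs1, chr13:119690101-119690350, plus strand: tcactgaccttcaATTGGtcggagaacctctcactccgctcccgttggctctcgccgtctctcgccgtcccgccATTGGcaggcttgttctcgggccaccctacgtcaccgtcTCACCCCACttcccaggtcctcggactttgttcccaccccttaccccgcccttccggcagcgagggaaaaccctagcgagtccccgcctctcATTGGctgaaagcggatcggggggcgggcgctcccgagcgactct
Pmvk, chr3:89454291-89454540, plus strand: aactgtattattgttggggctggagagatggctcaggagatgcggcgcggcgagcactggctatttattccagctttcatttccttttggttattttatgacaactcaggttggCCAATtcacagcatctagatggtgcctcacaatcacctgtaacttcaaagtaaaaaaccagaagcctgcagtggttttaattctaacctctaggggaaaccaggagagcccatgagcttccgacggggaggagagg
Mvd, chr8:122443423-122443672, minus strand: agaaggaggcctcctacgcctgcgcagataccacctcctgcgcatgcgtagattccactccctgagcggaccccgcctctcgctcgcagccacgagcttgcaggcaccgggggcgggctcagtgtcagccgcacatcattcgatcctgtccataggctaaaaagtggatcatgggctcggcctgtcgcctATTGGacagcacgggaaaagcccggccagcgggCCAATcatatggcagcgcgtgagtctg
Nsdhl, chrX:72918271-72918520, plus strand: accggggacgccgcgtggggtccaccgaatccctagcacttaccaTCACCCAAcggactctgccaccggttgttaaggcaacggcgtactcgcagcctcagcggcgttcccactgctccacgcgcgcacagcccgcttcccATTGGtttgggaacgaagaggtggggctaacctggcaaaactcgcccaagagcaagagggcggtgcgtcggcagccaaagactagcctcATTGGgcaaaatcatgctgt
Tm7sf2, chr19:6067851-6068100, minus strand: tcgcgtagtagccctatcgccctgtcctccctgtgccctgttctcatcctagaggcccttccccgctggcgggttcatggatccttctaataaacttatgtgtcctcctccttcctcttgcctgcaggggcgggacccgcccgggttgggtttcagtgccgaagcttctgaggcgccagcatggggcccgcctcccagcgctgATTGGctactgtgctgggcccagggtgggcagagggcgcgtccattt
Cyp46a1, chr12:108334066-108334315, plus strand: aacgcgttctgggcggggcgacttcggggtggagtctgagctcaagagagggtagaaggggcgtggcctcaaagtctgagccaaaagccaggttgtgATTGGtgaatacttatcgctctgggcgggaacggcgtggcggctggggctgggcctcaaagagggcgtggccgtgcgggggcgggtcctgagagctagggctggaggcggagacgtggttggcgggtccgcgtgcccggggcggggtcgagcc
In Hmgcs1 the sterol element began 137 bases before the start, with CCAAT boxes 237, 176 and 45 bases before it. Pmvk, whose first of 2 windows is shown, had a single CCAAT box at 136 bases before the start. Mvd had boxes at 60 and 27 bases, and Nsdhl had boxes at 109 and 20 bases beside a looser sterol element at 205 bases. Tm7sf2 had a box at 47 bases and Cyp46a1 at 153 bases.

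Facts of the arrays bear on every value. Between 6199 and 24112 of 41534 Cy5 spots were well above background on motor neuron arrays, and between 3776 and 32931 on glia arrays. The arrays of a pair, turned to transgenic over control, correlated between -0.81 and 0.54 over all probes, and below 0 in 7 of 16 pairs: 1 of SOD1-G93A motor neurons, 2 of SOD1-G93A glia, 1 of TAU-P301L motor neurons and 3 of TAU-P301L glia. The arrays of the fifth scan (pair 2 of SOD1-G93A glia and pair 1 of TAU-P301L glia) carried 1870 to 7207 outlier marks, against 1 to 306 elsewhere, and 4 and 8 members had no value there, which leaves 7 glia controls for some genes below. Only 3 members were well above background in the control extract of SOD1-G93A motor neuron pair 3, while the other control extracts held 8 to 27. Motor neuron and glia arrays were scanned in different batches with different software versions, so cell type and batch cannot be told apart. In control extracts 6 of 10 tested markers of motor neurons had higher levels there than in glia, among them Nefm by 1.67 and Calca by 2.29 on the log2 scale, and 1 (Mnx1) was higher in glia. The defining marker Chat differed by -0.06 and Slc18a3 was too dim to test, so the label rests on Nefm, Nefl, Prph, Calca, Calcb and Slc5a7. In glia 5 of 9 astrocyte and 3 of 7 oligodendrocyte markers were higher. In captured bulk RNA, fewer cells of a type and less RNA per cell cannot be told apart.

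Control motor neurons carried more RNA than control glia for several enzymes of sterol synthesis, among them Pmvk, Nsdhl, Hsd17b7, Sqle and Tm7sf2, while the transcription factor gene Srebf1 and the cholesterol hydroxylase Cyp46a1 were higher in glia. Of the 27 members tested, 8 had higher levels in motor neurons and 2 had higher levels in glia (limma, adjusted p under 0.05, 8 control extracts per cell type). Over all 13057 genes tested, 25.2% had the higher level in motor neurons and 11.4% had it in glia (36.6% in all), so the members' shares lie near those of all genes. The median difference was 0.16 over the members and 0.11 over all genes, in log2 intensity, with 18 members above 0 and 9 below, beside 62.4% and 37.6% of all genes. At an unadjusted p under 0.05 the members' counts were 10 and 4, beside 32.3% and 15.4% of all genes (47.7% in all). Mvk, which phosphorylates mevalonate, and Npc1, which carries cholesterol out of lysosomes, were not tested. The probe read for Mvk was well above background in 0 of 8 motor neuron and 1 of 8 glia extracts, and that for Npc1 in 0 and 2. Another Npc1 probe, of lower mean intensity, did pass the filter, with 4 control extracts well above background, and differed by 0.21. Of the 27 members, 19 were well above background in at least 4 of 8 extracts of both cell types, 8 in motor neurons alone and 0 in glia alone. Ggps1, Lss and Stard4 are among the 8, with Mvd, Fdps, Cyp51, Insig1 and Npc2, which did not pass. A gene tested only through the cell type where it is high tends to differ. Each of the 8 lay above 0, between 0.03 (Cyp51) and 0.47 (Stard4). They enter the median, the 18 members above 0 and the unadjusted counts given above, which were not redone without them. The shares of the 13057 genes hold such genes too. Over the 19, 5 members were called higher in motor neurons (Pmvk, Nsdhl, Hsd17b7, Sqle and Tm7sf2) and 2 in glia, beside 19.1% and 12.3% of 8459 genes. The calls also shift with other settings: the SOD1-G93A colony alone gave 1 call higher in motor neurons and 0 calls higher in glia, and the TAU-P301L colony alone gave 3 and 1, with 4 extracts per cell type. Scaling each array by its 75th percentile moved the median of all genes to 0.30, keeping genes above background in all 16 extracts moved it to -0.11, and the percentile scaling left 1 member higher in glia, Srebf1 no longer passing.

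**Figure D1:**
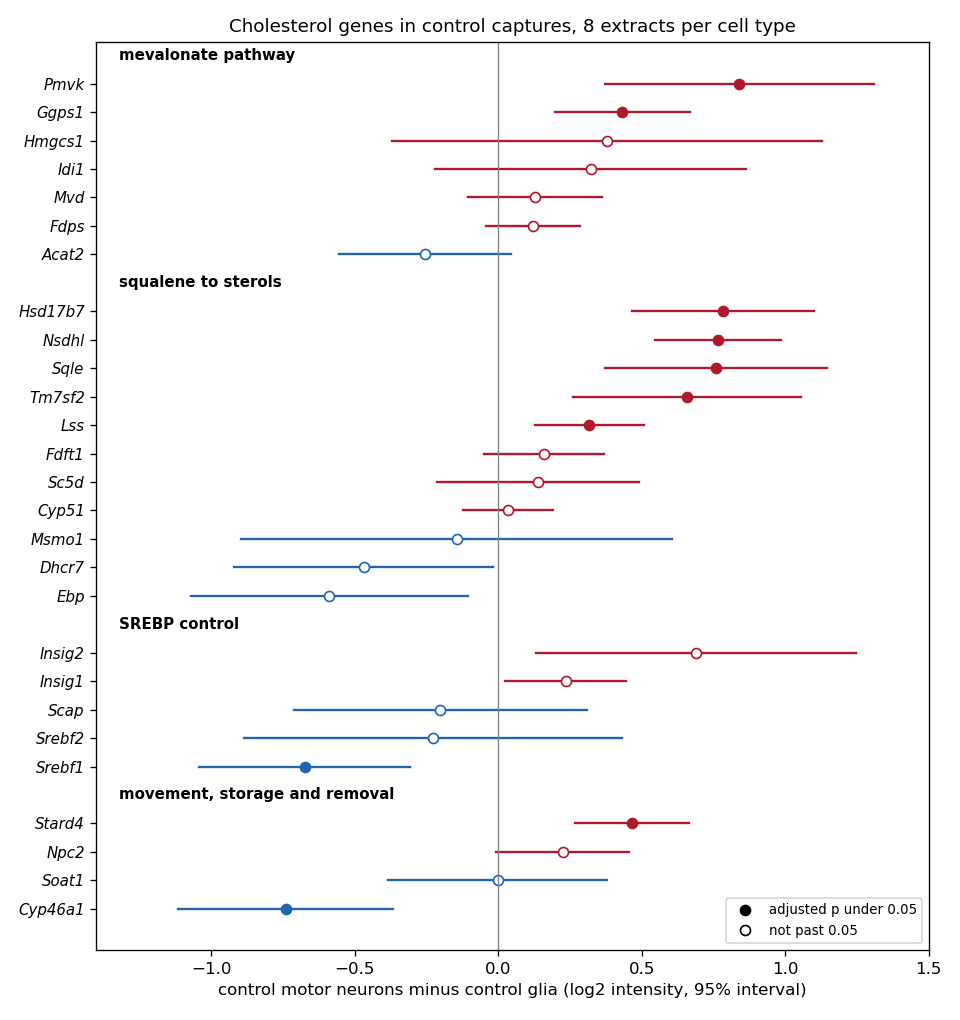
Difference of each of the 27 tested members between control motor neurons and control glia, as log2 intensity with its 95% interval, grouped by role. Filled points passed an adjusted p of 0.05: 8 members lie to the right (higher in motor neurons) and Srebf1 and Cyp46a1 to the left.

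Among the mevalonate genes, which build the farnesyl and geranylgeranyl units, Pmvk and Ggps1 were higher in motor neurons. Phosphomevalonate kinase Pmvk had a lowest, median and highest log2 level of 7.12, 8.60 and 8.91 in motor neurons, against 6.84, 7.55 and 7.83 in glia. All but 1 of the motor neuron extracts lay above every glia extract, and the difference was 0.84 ± 0.22 (SE over 8 and 8 extracts; limma adjusted p = 0.00891), 1.79-fold. A second Pmvk probe gave 0.73. Geranylgeranyl diphosphate synthase Ggps1, at a branch point that feeds protein prenylation, had levels of 6.44, 6.67 and 6.94 in motor neurons, against 5.78, 6.24 and 6.57 in glia. Of its motor neuron extracts 5 lay above all glia extracts, with a difference of 0.43 ± 0.11 (SE, limma adjusted p = 0.00797), and a second probe gave 0.36. Its probe was well above background in 6 motor neuron but 3 glia extracts, so it was tested through motor neurons alone. Hmgcs1, the synthase that makes HMG-CoA, had levels of 8.23, 10.40 and 10.63 in motor neurons, against 8.51, 9.88 and 10.96 in glia. The ranges overlapped nearly fully, and its difference of 0.38 had a 95% interval of -0.37 to 1.13, with -0.27 in the SOD1-G93A colony and 1.03 in the TAU-P301L colony. Differences that did not pass were 0.32 for the isomerase Idi1, 0.13 for the decarboxylase Mvd, 0.12 for farnesyl diphosphate synthase Fdps and -0.25 for the thiolase Acat2. The Idi1 probe also lists a transcript of Idi2 and the Acat2 probe one of Acat3, so these readings may mix genes.

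Between squalene and cholesterol, 5 of 11 enzymes passed with the higher level in motor neurons and 0 with the higher level in glia. Of these 5, Lss was tested through motor neurons alone. Over all genes tested, 25.2% passed with the higher level in motor neurons and 11.4% with the higher level in glia. The 11 enzymes were not tested as a group. Nsdhl, which removes carbon from the sterol ring as part of demethylation, had levels of 6.68, 6.98 and 7.45 in motor neurons, against 5.89, 6.28 and 6.47 in glia. It was the only member of the 27 whose extracts did not overlap between cell types, a separation that 5.09% of all genes showed in this direction and 1.46% in the other. Its difference was 0.77 ± 0.10 (SE, limma adjusted p = 0.000208), 1.70-fold, and the other probe bright enough to test gave 0.49. Hsd17b7, the keto reductase of the same demethylation complex, had levels of 6.58, 7.05 and 7.58 in motor neurons, against 5.97, 6.26 and 6.91 in glia. Its extracts overlapped only through the highest glia extract, TAU-P301L control 3, and the difference was 0.78 ± 0.15 (SE, limma adjusted p = 0.00148), with 0.52 from a second probe. Squalene epoxidase Sqle had levels of 6.68, 7.38 and 8.01 in motor neurons, against 6.01, 6.79 and 6.98 in 7 glia extracts. A single motor neuron extract fell within the glia range, and the difference was 0.76 ± 0.18 (SE, limma adjusted p = 0.00579).

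The sterol reductase Tm7sf2 had levels of 6.72, 7.16 and 7.43 in motor neurons, against 5.70, 6.68 and 7.13 in glia. The cell types overlapped, 5 motor neuron extracts lay above all glia, and the difference was 0.66 ± 0.19 (SE, limma adjusted p = 0.0136). Lanosterol synthase Lss, which closes squalene epoxide into the first sterol, had levels of 6.23, 6.43 and 6.59 in motor neurons, against 5.86, 6.09 and 6.47 in 7 glia extracts. Most of its motor neuron extracts lay within the glia range, and the difference was 0.32 ± 0.09 (SE, limma adjusted p = 0.0132). Its probe was well above background in 5 of 8 motor neuron extracts and 1 of 8 glia extracts, so this is a difference near the floor. Other sterol enzymes had the higher mean in glia without passing the test: the isomerase Ebp differed by -0.59 (limma adjusted p = 0.0539), the last reductase Dhcr7 by -0.47 (limma adjusted p = 0.0939) and the methyl oxidase Msmo1 by -0.15. The squalene synthase Fdft1 differed by 0.16, the desaturase Sc5d by 0.14 and the demethylase Cyp51 by 0.03, and none passed. A second Sc5d probe gave -0.17, opposite in sign to the one used.

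Among the SREBP genes, Srebf1, which encodes the SREBP1 factors and is better known for fatty acid genes, had levels of 6.69, 7.44 and 7.88 in motor neurons, against 7.63, 8.17 and 8.49 in 7 glia extracts. Of its motor neuron extracts 6 lay below all glia extracts, and the difference was -0.67 ± 0.17 (SE, limma adjusted p = 0.0082), which is 1.60-fold higher in glia. Srebf2, which encodes the main factor of the cholesterol genes, differed by -0.23 with a 95% interval of -0.89 to 0.43, and another of its probes gave 0.21. Scap differed by -0.20. Insig2 had the higher mean in motor neurons without passing, by 0.69 (limma adjusted p = 0.0516), with a second probe at 0.56. Insig1 differed by 0.23 (limma adjusted p = 0.0749), but was well above background in 5 motor neuron and 1 glia extracts. It was thus tested through motor neurons alone, near the floor in glia, and another Insig1 probe, too dim to test, gave -0.04.

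Of the genes that move, store or remove cholesterol, Stard4 was higher in motor neurons and Cyp46a1 in glia. Stard4, a soluble sterol carrier, had levels of 6.32, 6.69 and 7.06 in motor neurons, against 5.83, 6.29 and 6.57 in 7 glia extracts. All motor neuron extracts but 1 lay above every glia extract, with a difference of 0.47 ± 0.09 (SE, limma adjusted p = 0.00212). It was well above background in 7 motor neuron but 3 glia extracts, so it was tested through motor neurons alone and its glia levels lie near the floor. Cyp46a1 had levels of 6.20, 6.80 and 7.02 in motor neurons, against 6.64, 7.46 and 8.34 in 7 glia extracts. Its difference was -0.74 ± 0.17 (SE, limma adjusted p = 0.0054), 1.67-fold higher in glia, at -0.62 in the SOD1-G93A colony and -0.88 in the TAU-P301L colony, and its ranges overlapped. The lysosomal carrier Npc2 differed by 0.22 and the cholesterol acyltransferase Soat1, which makes cholesteryl esters for storage, by -0.0013, and neither passed. The 5 general neuron markers averaged 7.41 to 9.62 in log2 intensity in motor neurons, against 7.85 to 9.82 in glia, and 2 of the 5 had higher levels in motor neurons. Their part in the Cyp46a1 difference was not tested.

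**Figure D2:**
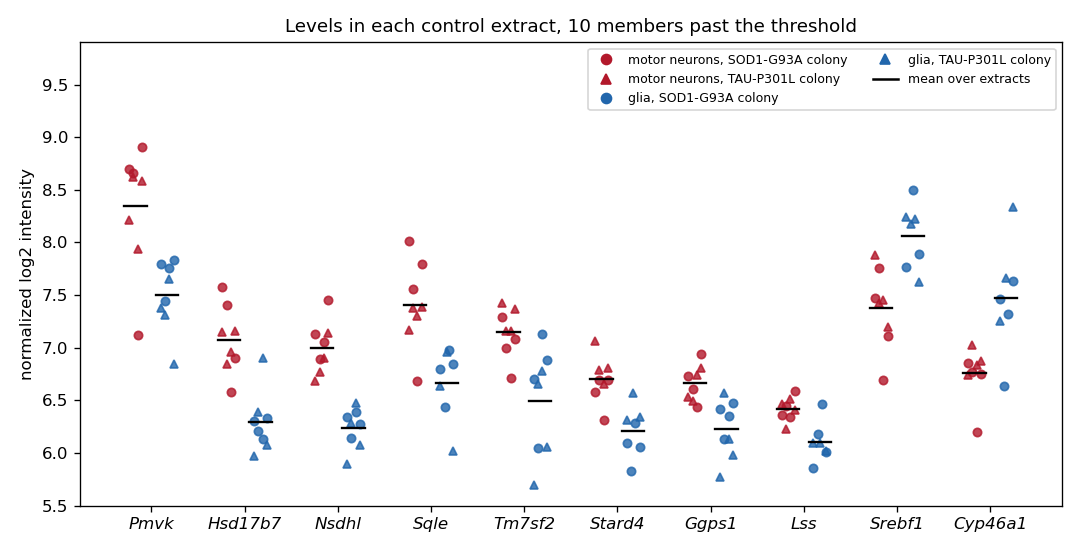
Normalized log2 intensity in every control extract for the 10 members past the threshold, motor neurons left of glia for each gene, with circles for the SOD1-G93A colony, triangles for the TAU-P301L colony and bars for means. Nsdhl is the gene whose groups do not overlap, and Srebf1 and Cyp46a1 are the genes with the higher mean in glia.

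Neighbouring pathways were read in the same controls. Over all genes tested, 25.2% passed with the higher level in motor neurons and 11.4% with the higher level in glia. Every listed gene that passed is named below, and no list was tested as a group. Of 10 fatty acid genes under SREBP1, Acly, the citrate cleaving enzyme that supplies cytosolic acetyl-CoA, was higher in motor neurons by 0.78 ± 0.12 (SE, limma adjusted p = 0.000459) and the acetyl-CoA synthetase Acss2 by 0.52, while the desaturase Fads1 was higher in glia, at -0.34 (limma adjusted p = 0.0116). Of 10 tested genes of LXR signalling and sterol export, the lipid carrier Apoe was higher in glia, at -1.09 ± 0.23 (SE, limma adjusted p = 0.00237), as was Ch25h at -0.56, and Nr1h3 was higher in motor neurons by 0.22. Of 8 tested genes that process or degrade SREBP and its partners, Syvn1 was higher in motor neurons by 0.83 and Erlin1 by 0.32. Among 7 tested genes that use isoprenoid units, Rabggta was higher in motor neurons by 0.37. Of 5 other tested genes of sterol synthesis and uptake, 0 passed in limma and 2 had an unadjusted p under 0.05, 1 in each direction. At that unadjusted level 32.3% of all genes were higher in motor neurons and 15.4% were higher in glia.

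In SOD1-G93A motor neurons no member passed the test, and the mean ratios of the mevalonate genes to littermate controls lay below 0 on the probes read. In limma 0 of 27 members tested and 0 of 13307 genes (0%) passed an adjusted p of 0.05, and 1249 genes (9.39%) reached p under 0.05 before adjustment. At that unadjusted level 6 members were lower and 1 was higher, where 5.91% and 3.47% of all genes were. Below 0 lay 17 of 27 members and all 7 tested mevalonate genes, against 49.9% of all genes, and above 0 lay 10 members against 50.1%. The median log2 ratio was -0.16 over the mevalonate genes, -0.05 over the members and 0.00039 over all genes. The count of 7 depends on pair 4, and the size of the median rests on it in part. Without pair 4, 5 of the 7 lay below 0, with a median of -0.08, Hmgcs1 was at 0.14 and Idi1 at 0.04. Idi1 lay above 0 in 3 of 4 pairs, and the median of the 7 was -0.13, -0.13, -0.00058 and -0.19 in pairs 1 to 4. The sign also depends on the probe. Second probes bright enough to test averaged 0.06 for Ggps1 and 0.04 for Fdps, against -0.06 and -0.11 from the probes read. That of Pmvk stayed below 0, at -0.43. Genes of 1 pathway in the same extracts are not independent, and the shift of the mevalonate genes was not tested as a group.

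Pmvk had log2 ratios of -0.54, -0.30, -0.13 and -1.13 in pairs 1 to 4. All lay below 0, with pair 4 lowest, and the mean was -0.53 ± 0.44 (SD, n = 4; limma adjusted p = 0.452). Without pair 4 the estimate was -0.32, and over all alternatives it ran from -0.80 to -0.32. A second Pmvk probe averaged -0.43 ± 0.38 (SD). Mvd had ratios of -0.33, -0.20, -0.07 and -0.13, again all below 0, at -0.18 ± 0.11 (SD, n = 4; limma adjusted p = 0.457), from a probe well above background in 4 of 8 extracts. Nsdhl had ratios of -0.38, -0.11, -0.03 and -0.28 and averaged -0.20 ± 0.16 (SD, n = 4; limma adjusted p = 0.509), with a second probe at -0.15. Npc2, at -0.09, was the other member below 0 in all pairs, so 4 of 27 members were, beside 7.88% of all genes, and 0 members were above 0 in all pairs, beside 5.44%.

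Sqle had ratios of -0.71, -0.12, 0.02 and -0.58, so pairs 1 and 4 were the low ones and pair 3 was near 0. Its mean was -0.35 ± 0.35 (SD, n = 4; limma adjusted p = 0.52). Insig1 had ratios of 0.00, -0.25, -0.24 and -0.13, with pair 1 near 0, at -0.15 ± 0.12 (SD, n = 4; limma adjusted p = 0.517). A second Insig1 probe, well above background in 4 of 8 extracts, averaged 0.0063 ± 0.05 (SD) and so had no decrease. Tm7sf2 was the member on the higher side, with ratios of 0.21, 0.32, -0.12 and 0.47 and a mean of 0.22 ± 0.25 (SD, n = 4; limma adjusted p = 0.53). Leaving out 1 pair took Tm7sf2 to 0.13 (without pair 4) and Sqle to -0.23 (without pair 1). Over all alternatives Mvd ran from -0.46 to -0.10, Insig1 from -0.50 to -0.07, Nsdhl from -0.33 to -0.14, Sqle from -0.54 to -0.23 and Tm7sf2 from 0.09 to 0.37. The mean ratios of the other 21 tested members lay between -0.33 (Hsd17b7) and 0.30 (Sc5d). Second probes averaged -0.21 for Hsd17b7 but -0.08 for Sc5d, opposite in sign to the Sc5d probe read. Markers of cell types in the same extracts also leaned: 8 of 11 motor neuron markers lay below 0 with a median of -0.16, 4 of 5 general neuron markers lay below 0 with a median of -0.26, all 8 tested oligodendrocyte markers lay above 0 with a median of 0.13, and 7 of 10 astrocyte markers lay above 0. The mean level of the 11 motor neuron markers was 7.57 to 8.68 in transgenic extracts, against 7.76 to 8.91 in control extracts, and that of the 8 oligodendrocyte markers was 7.56 to 9.25, against 7.24 to 8.89. The oligodendrocyte markers Mog and Opalin were well above background in 0 extracts. Pmvk, Nsdhl and Sqle had higher levels in control motor neurons than in control glia, and the part of the cell type markers in their ratios was not tested.

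**Figure D3:**
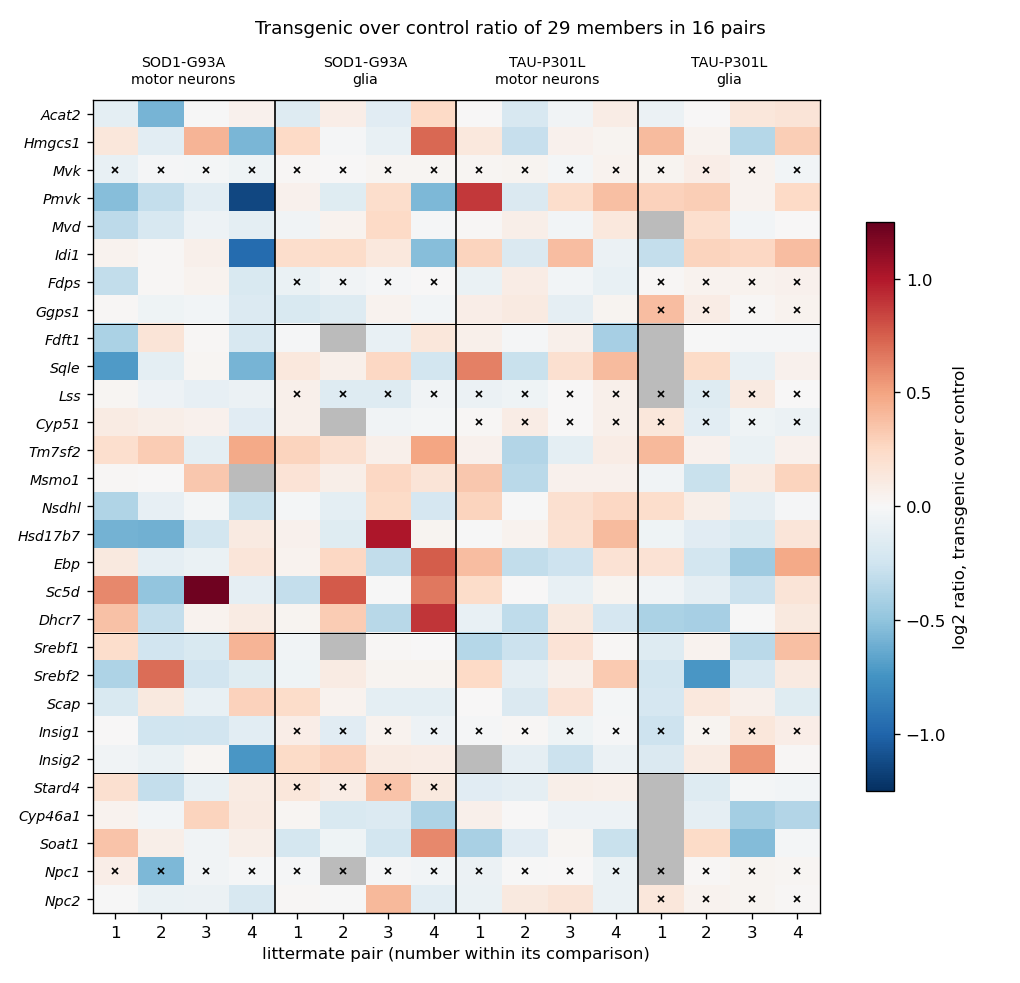
Log2 ratio of transgenic over control for the 29 members (rows, ordered by role) in the 16 littermate pairs (columns), red above 0 and blue below, grey where an array lacked a value and crosses where the gene was too dim to test. The Pmvk row is blue in all 4 pairs of SOD1-G93A motor neurons, and pair 4 of that group holds the lowest ratio of the map, -1.13.

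In TAU-P301L motor neurons no member passed, and Pmvk, Nsdhl and Sqle had mean ratios above 0. In limma 0 of 24 members tested and 0 of 11667 genes (0%) passed, and 403 genes (3.45%) reached p under 0.05 before adjustment. At that level 1 member was higher and 0 lower, beside 1.83% and 1.63% of all genes. The members split evenly, 12 above and 12 below 0, beside 46.5% and 53.5% of all genes, with a median of -0.0034. None was above 0 in all pairs or below 0 in all pairs (0 members each), beside 6.5% and 6.08% of all genes. Nsdhl had ratios of 0.28, -0.01, 0.20 and 0.26 in pairs 1 to 4. All but pair 2 lay above 0, and its mean was 0.18 ± 0.13 (SD, n = 4; limma adjusted p = 0.998), with a range of 0.10 to 0.37 over all alternatives. A second Nsdhl probe averaged only 0.02 ± 0.06 (SD), while a second Pmvk probe averaged 0.29 ± 0.40 (SD). Pmvk averaged 0.33 ± 0.44 (SD, n = 4) and Sqle 0.24, with pair 1 highest and pair 2 lowest for both. Ratios of the other 23 members lay between -0.20 (Soat1) and 0.33 (Pmvk). Of the 8 tested motor neuron markers 7 lay above 0 here, with a median of 0.19. The 4 tested general neuron markers split, 2 above and 2 below 0, with a median of -0.00054.

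The difference between the models was tested directly in motor neurons, where SOD1-G93A minus TAU-P301L asks whether the mutant SOD1 and mutant tau ratios differ. In limma 0 of 24 members and 0 of 11341 genes (0%) passed, and 1180 genes (10.4%) reached p under 0.05 before adjustment. Unadjusted, 5 members were lower in SOD1-G93A and 1 was higher, beside 6.32% and 4.08% of genes. Pmvk differed by -0.85 ± 0.23 (SE, limma adjusted p = 0.316). Nsdhl differed by -0.38 ± 0.11, Sqle by -0.58 ± 0.20 and Mvd by -0.23 ± 0.08 (SE, limma adjusted p = 0.324, 0.382 and 0.417 in that order). Hsd17b7 differed by -0.49 and Tm7sf2 by 0.30. A second Nsdhl probe averaged -0.15 in SOD1-G93A and 0.02 in TAU-P301L motor neurons, and a second Pmvk probe -0.43 and 0.29. All 7 tested mevalonate genes had the lower ratio in SOD1-G93A, where 47.8% of all genes did, but over all members 14 had the lower and 10 the higher ratio, beside 52.2% of genes with the higher. Without SOD1-G93A pair 4 the mevalonate count was 6 of 7, with a median of -0.06 in place of -0.13, and without SOD1-G93A pair 2 it was 5 of 7. A second Ggps1 probe had the reverse order, at 0.06 in SOD1-G93A and -0.02 in TAU-P301L motor neurons. The motor neuron and neuron markers also leaned lower in SOD1-G93A, with 6 of 8 and 4 of 4 below 0, and model, age and strain cannot be told apart. Above 0 lay 7 of 7 oligodendrocyte, 7 of 7 microglia and 2 of 2 red cell markers, and 5 of 9 astrocyte markers. The part of these markers in the members' differences was not tested.

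**Figure D4:**
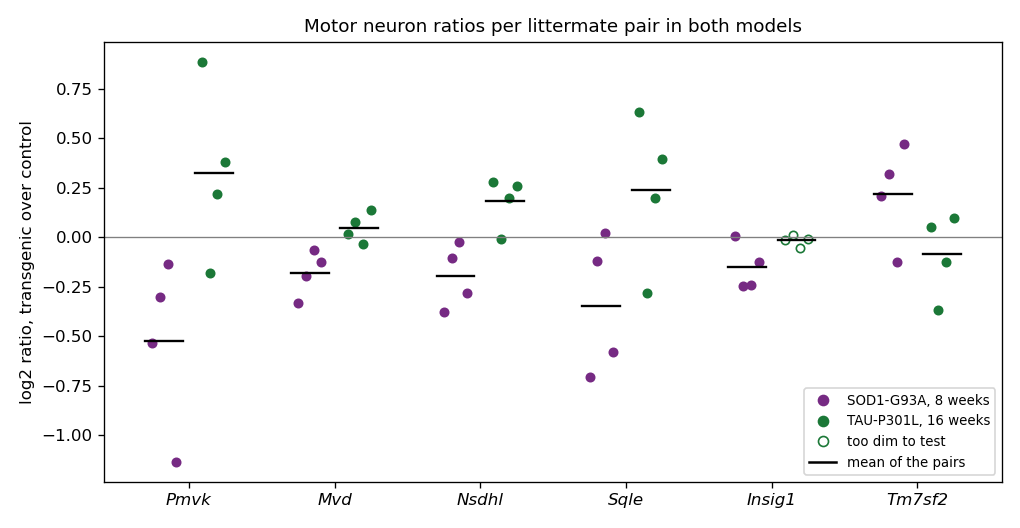
Log2 ratio of transgenic over control in each littermate pair for the 6 members with the smallest p in SOD1-G93A motor neurons, beside the same genes in TAU-P301L motor neurons; bars are means and open points were too dim to test. Pmvk lies below 0 in every SOD1-G93A pair and above 0 in all TAU-P301L pairs but 1, and none of the 6 passed an adjusted p of 0.05.

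In SOD1-G93A glia most members lay above 0, by a small median, and none passed. In limma 0 of 23 members tested and 0 of 10465 genes (0%) passed, with 1561 genes (14.9%) at an unadjusted p under 0.05. Above 0 lay 17 of 23 members and below 0 lay 6, beside 56.8% and 43.2% of all genes, and the median was 0.03 over the members and 0.02 over all genes. The members' median moved between 0.02 and 0.17 over the alternatives, and to 0.07 without pair 1. Of the astrocyte markers 8 of 9 lay above 0 in these extracts, and of the oligodendrocyte markers 6 of 8; their part in the members' ratios was not tested. Unadjusted, 1 member was higher and 1 lower, beside 6.91% and 8.01% of genes. Tm7sf2 had ratios of 0.27, 0.20, 0.06 and 0.49. It was above 0 in all pairs, at 0.26 ± 0.18 (SD, n = 4; limma adjusted p = 0.229), as were Msmo1 at 0.17 and Insig2 at 0.18, 3 of 23 members beside 9.51% of genes, while 0 members lay below 0 in all pairs, beside 9.55%. A second Insig2 probe, well above background in 4 of 8 extracts, averaged -0.01 ± 0.03 (SD) and so had no rise. Cyp46a1 had ratios of 0.03, -0.19, -0.17 and -0.39. All but pair 1 lay below 0, at -0.18 ± 0.17 (SD, n = 4; limma adjusted p = 0.211). Without pair 4 its estimate was -0.11, and over all alternatives it ran from -0.42 to -0.11, while that of Tm7sf2 ran from 0.18 to 0.71. The other 21 members lay between -0.11 (Pmvk) and 0.28 (Sc5d). Second probes averaged -0.13 for Pmvk and 0.04 for Sc5d.

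In TAU-P301L glia Cyp46a1 was again the member lowest against controls. In limma 0 of 21 members tested and 0 of 8915 genes (0%) passed, with 1151 genes (12.9%) at an unadjusted p under 0.05. Unadjusted, 0 members were higher and 1 lower, beside 4.76% and 8.15% of genes. The log2 levels of Cyp46a1 in pairs 2, 3 and 4 were 7.14, 7.24 and 7.98 in TAU-P301L glia, against 7.25, 7.66 and 8.34 in control glia. Each transgenic extract lay below its littermate, pair 1 had no value on an array of the fifth scan and was dropped from the fit, and the mean ratio was -0.30 ± 0.16 (SD, n = 3; limma adjusted p = 0.213). With median centring in place of loess the estimate was -0.10, and over all alternatives it ran from -0.49 to -0.10. In SOD1-G93A glia the levels were 7.49, 6.44, 7.16 and 7.24, against 7.46, 6.64, 7.32 and 7.63 in control glia. In motor neurons its mean ratio was 0.10 in SOD1-G93A and -0.01 in TAU-P301L mice, and the difference of motor neurons minus glia was 0.28 (limma adjusted p = 0.171) in SOD1-G93A and 0.29 (limma adjusted p = 0.93) in TAU-P301L mice. The glia comparisons used separate mice but were scanned in part together, and their dye-swapped arrays correlated below 0 in 2 and 3 of 4 pairs.

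**Figure D5:**
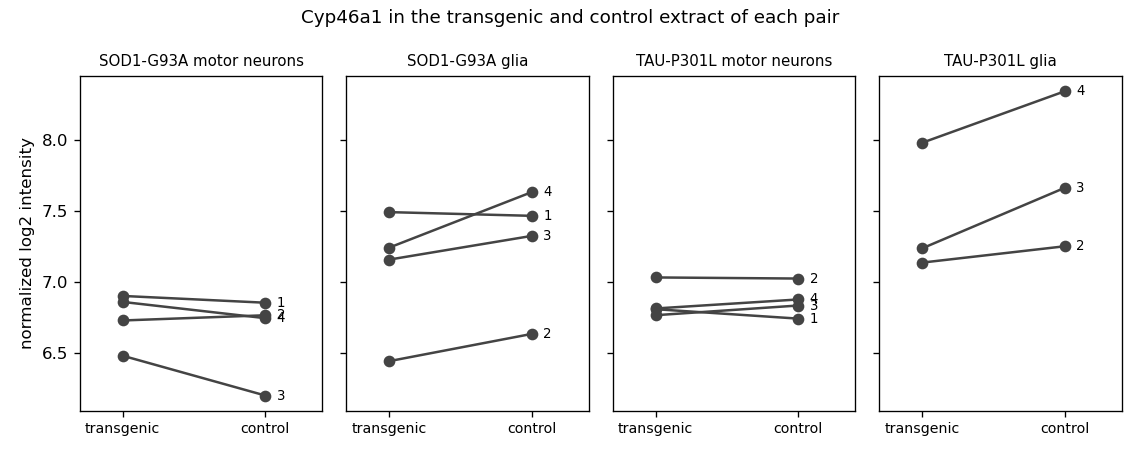
Normalized log2 intensity of Cyp46a1 in the transgenic extract (left) and control extract (right) of each littermate pair, joined by a line and numbered by pair, in the 4 comparisons. In TAU-P301L glia the 3 measured pairs lie lower in the transgenic extract, as do pairs 2, 3 and 4 of SOD1-G93A glia, while the motor neuron pairs have ratios between -0.07 and 0.28.

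The remaining members of TAU-P301L glia lay between -0.26 (Srebf2) and 0.22 (Pmvk), 10 of 21 members were above 0 and 11 below, beside 50.9% and 49.1% of all genes, and the median was -0.0057. All 5 tested mevalonate genes had ratios above 0, their median being 0.095 (4 of 5 without pair 1 or without pair 2), and Pmvk was above 0 in all 4 pairs, at 0.29, 0.31, 0.05 and 0.25, as 8.88% of genes were, with 0 members below 0 in all pairs beside 8.88%. Of the 9 tested astrocyte markers 9 lay below 0 with a median of -0.15, and 7 of 8 motor neuron markers lay above 0 with a median of 0.25. Of the general neuron markers 3 of 4 lay above 0, with a median of 0.31, and 6 of 7 oligodendrocyte markers lay below 0, with a median of -0.09. The mean level of the astrocyte markers was 8.55 to 9.12 in transgenic extracts, against 8.62 to 9.45 in control extracts. The part of these cell type markers in the Cyp46a1 ratio was not tested. Between motor neurons and glia of SOD1-G93A mice, 16 of 23 members had the lower ratio in motor neurons, where 58.7% of 9782 genes did, and 0 members and 0 genes (0%) passed in limma, with 1360 genes (13.9%) at p under 0.05 before adjustment. Before adjustment 1 member was higher and 3 were lower, beside 9.29% and 4.61% of genes, and 7 members lay above 0, beside 41.3% of genes. The 3 lower ones were Hsd17b7 at -0.56 (limma adjusted p = 0.235), Insig2 at -0.39 and Mvd at -0.24, and the higher one was Cyp46a1. A second Insig2 probe averaged 0.01 in motor neurons and -0.01 in glia of SOD1-G93A mice. Between SOD1-G93A and TAU-P301L glia 0 of 20 members and 0 of 8429 genes (0%) passed, and 0 members and 538 genes (6.38%; 4.13% higher, 2.25% lower) reached p under 0.05 before adjustment. Of those members 14 lay above 0 and 6 below, beside 51.5% and 48.5% of genes. In TAU-P301L mice the motor neuron ratio minus the glia ratio gave 0 calls among 21 members and 8403 genes (0%). Before adjustment 412 genes (4.9%) reached p under 0.05, 1.92% higher and 2.99% lower, with 1 member, Cyp46a1, on the higher side and 0 on the lower. Above 0 lay 12 of the 21 members and below 0 lay 9, beside 48.5% and 51.5% of genes.

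Other pathway lists gave no call in the 4 comparisons. In SOD1-G93A motor neurons Acss2 had the smallest p of the fatty acid genes, with a ratio of -0.22 (limma adjusted p = 0.488), and 1 of 5 further genes of sterol synthesis and uptake was lower at an unadjusted p under 0.05, beside 5.91% of all genes. The median ratio of genes of LXR signalling and sterol export there was 0.05, with 7 of 9 above 0 beside 50.1% of all genes, and that of genes using isoprenoid units was -0.04, with 5 of 7 below 0 beside 49.9%. In TAU-P301L mice 8 of 9 LXR and export genes lay below 0 in motor neurons, beside 53.5% of all genes, and 6 of 7 in glia, beside 49.1%. In SOD1-G93A glia 5 of 9 lay above 0, beside 56.8%.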

How the data were processed

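Total RNA of laser-captured cells was amplified and hybridised to 2-colour arrays, 4 littermate pairs in each of 4 comparisons. Per the file headers, the authors' scanner files hold spot intensity and log10 ratios of Cy5 over Cy3 made with Agilent Feature Extraction, version 8.5.1.1 on motor neuron arrays and 9.5.1.1 on glia arrays; the submitters' processing notes give 8.5.1.1 throughout. The series matrix that the authors deposited has log10 ratios, with a median of 0 in every column; its columns followed the scanner ratio of the same array at absolute correlations of 0.982 to 0.999, transgenic over control by the dye labels in 32 of 32. It was used as an alternative.

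From mean and background intensity, normexp (offset 50) and within-array loess gave log2 ratios (limma 3.58.1, R 4.3.3), control spots at weight 0 and outlier-marked spots left out. The arrays of a pair were averaged, and a pair lacking either value was left missing. Control levels came from single channels after Aquantile normalization, and their fit had the colony as a covariate. An extract measured a gene when the spot passed the scanner's well-above-background mark on each of its arrays, and a gene was tested when at least 4 of 8 extracts did so (for control motor neurons against glia, of either cell type). The 16 pairs entered 1 fit over genes tested in any comparison, with Benjamini-Hochberg adjustment. P-values measure the spread between pairs and extracts. The 2 arrays of a pair were averaged, so the units are 4 littermate pairs per comparison and 8 control extracts per cell type. The fits were tested on simulated data.

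Every member is named. Values of each pair are given for up to 6 members per comparison with the smallest unadjusted p under 0.05, plus values beside them chosen after they were seen. Members, lists and this rule were chosen with earlier results of these data known. Each slide held 1 array, so slide was no batch; scan was. Alternatives covered background, normalization, filter, probe choice, scan, dye and each left-out pair.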

Additional observations from a re-analysis of the deposited data

Results flagged for a closer look

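Of 33 groups of 4 to 10 values checked, 3 held a value far from the others, where chance gives about 1 in 20. The median log2 ratio of the members in TAU-P301L motor neurons was -0.13 in pair 2, and the nearest of the other pairs was at 0.03. Hsd17b7 had a level of 6.91 in the glia control of TAU-P301L pair 3, and the nearest control glia extract was at 6.39. Cyp46a1 had a level of 6.20 in the motor neuron control of SOD1-G93A pair 3, the extract with 3 members above background, and the nearest control motor neuron extract was at 6.74. Of the effects compared between models or cell types, 0 had every pair on opposite sides of 0.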

How the results depend on the processing

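In the 4 transgenic comparisons, 0 members passed under any alternative, and the estimates of named members reversed in 0 of 180 recomputed values. Those members were picked by their p in these same data, and most alternatives reuse the same pairs and probe, so the count is no independent support. No alternative read a second probe alone, and that of Insig1 averaged 0.0063 in SOD1-G93A motor neurons, against -0.15 from the probe read. Counts of genes past the threshold, 0 as reported, were as follows. In SOD1-G93A glia they were 2 with a normexp offset of 10, 5 with scan as a random block, 1 within scan 3 and 8 with every gene of the array in the fit, an alternative chosen after seeing the data. In SOD1-G93A motor neurons they were 1 with no filter, 2 within scan 2 and 1 with every gene in the fit. In TAU-P301L glia they were 1 without the pairs whose arrays correlated below 0 and 1 without the scan 5 pairs, which also gave 1 for motor neurons minus glia in TAU-P301L mice (chosen after seeing the data). Leaving out 1 pair gave 0 to 1 genes in SOD1-G93A motor neurons, SOD1-G93A glia, TAU-P301L glia and all differences but SOD1-G93A motor neurons minus glia, and 0 there and in TAU-P301L motor neurons.
For control motor neurons against glia, 4778 genes passed (3292 higher in motor neurons, 1486 in glia). The SOD1-G93A colony alone gave 535 (224 and 311), with 1 and 0 members. The TAU-P301L colony alone gave 1804 (1482 and 322), with 3 and 1 members. Cy5 alone gave 2141 (1346 and 795), with 2 members higher in motor neurons. No filter gave 7351, of which 3210 in glia. Requiring all 16 extracts gave 176 (73 and 103), with 0 and 0 members, since Scap was then the member left to test. Requiring 4 of 8 extracts of both cell types, chosen after seeing the data, gave 2653 (1615 and 1038), with 5 and 2 members. Members higher in glia were 4 under quantile normalization, 4 from Cy3 alone and 1 after 75th percentile scaling. Leaving out 1 extract gave 3897 to 5605 genes (2659 to 4182 and 1214 to 1750), with 8 to 11 and 2 to 3 members. Of 277 recomputed values of the 10 members called, which were likewise picked in these same data, 0 reversed and 24 no longer passed. The cause of these shifts was not tested. With the replicate number as a block the count was 4141 genes (2664 and 1477), with 9 and 2 members, and 0 genes for each difference of effects. The numbers were not taken as pairs, since no 2 groups had every same-numbered correlation of ratio deviations above 0.1 (range -0.16 to 0.33). As a hint from the data, motor neurons and glia of TAU-P301L mice had 3 of 4 above it. Deviations of control levels correlated between -0.34 and 0.62, and above 0.1 in all 4 numbers for motor neurons of SOD1-G93A and TAU-P301L mice (0.31 to 0.52). Those 2 groups are mice of different strains, so a shared number is not a shared mouse. In both groups pairs 1 and 2 were in scan 2 and pairs 3 and 4 in scan 1. The part of scan in these correlations was not tested.
Few littermate pairs, dim Cy5 signal and opposed dye-swap arrays limit what the ratios can show. The median 95% interval of a member's ratio reached 0.21 either side of its estimate in SOD1-G93A motor neurons and 0.26 in TAU-P301L glia.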
